A study of Mus musculus with 10 samples.

Results

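The genes described here are the 4 that encode the subunits of calcium/calmodulin-dependent protein kinase II (CaMKII), Camk2a, Camk2b, Camk2d and Camk2g, the 2 that encode its endogenous inhibitor proteins, Camk2n1 and Camk2n2, and Camk4, which encodes the related kinase CaMKIV. They were chosen by gene symbol, and all 7 were found among the 13661 genes of the authors' deposited table of 1 comparison. Poly(A) RNA was sequenced from the cortex of male mice, 5 wild-type (WT) and 5 Chd8 KI (knock-in), all at 8 weeks of age. The series presents the knock-in as a model of duplication of Chd8, a chromatin remodeller gene linked to autism. The locus, the promoter and the copy number of the knock-in allele, its zygosity, the strain and which animals shared a litter are not stated in the labels.

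CaMKII is one of the most abundant proteins of excitatory synapses. Calcium entering through NMDA receptors binds calmodulin, calmodulin opens the kinase, and neighbouring subunits of the ring-shaped holoenzyme phosphorylate each other so that the kinase stays active after calcium has fallen. The alpha and beta subunits predominate in forebrain neurons, and the kinase is required for long-term potentiation and spatial learning. CaMKIV is a separate, monomeric kinase of the nucleus that is switched on by the CaM kinase kinases and phosphorylates the transcription factor CREB.

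All 7 genes had a positive log2 fold change, and in the authors' deposited table none reached an adjusted p under 0.05. Over all 13660 genes with a p-value, 0.0732% passed that threshold (0.00732% higher and 0.0659% lower in KI), and 51.6% had a positive log2 fold change. The members' log2 fold changes lay between 0.027 and 0.12 with a median of 0.032, beside a median of 0.0025 over all genes, in the authors' deposited table. These values are a description, because the group was proposed with this comparison already known. The table holds no value for single libraries, so the spread over animals is carried here by the deposited standard error alone, and neither overlap between the groups nor the depth of a library can be shown. The header does not name the direction, and KI over WT is the reading under which Chd8 is higher (log2 fold change 0.49, adjusted p = 0.0044 by DESeq2 in the authors' deposited table), so every direction here rests on Chd8.

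In the RefSeq annotation of GRCm38.p6 the 7 genes, all protein-coding, lie on 6 chromosomes, and the values are for whole genes rather than for isoforms. Camk2a (gene 12322) spans positions 60925307 to 60988152 of chromosome 18, and Camk4 (12326) spans 32934941 to 33195767 of the same chromosome. Camk2b (12323) lies on chromosome 11 from 5969629 to 6066357, Camk2d (108058) on chromosome 3 from 126595487 to 126846326, and Camk2g (12325) on chromosome 14 from 20734873 to 20794157. The inhibitor genes are short. Camk2n1 (66259) spans 138455148 to 138460126 of chromosome 4, Camk2n2 (73047) spans 20619215 to 20621278 of chromosome 16, and each has 2 exons and 1 annotated transcript in GENCODE M21. By contrast the subunit genes have 18 to 21 exons in their longest coding transcript and 7 (Camk2a) to 28 (Camk2d) annotated transcripts, while Camk4 has 11 exons and 4 transcripts.

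The members' reads can largely be told apart by sequence. No stretch of 50 bases was shared between the GENCODE transcripts of any 2 members. Stretches shared with any other gene made up 0.293% of the 50-base stretches of Camk2a, 0.159% of those of Camk2b and 0.71% of those of Camk4, and none was found for the other 4. The Camk4 stretches were shared with 2310026I22Rik, an antisense gene that overlaps 72 bases of Camk4 exons and was not among the genes tested. The labels do not say whether reads were counted by strand.

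Of the 7 members, 3 had an entry in the RefSeq promoter table of GRCm38.p6. The 250 bases before their start sites are shown, 5′ to 3′ on the gene's strand, because the sequence composition there is a property shared by 2 subunit genes and an inhibitor gene that the choice of members did not use. Capitals mark the GC box, GGGCGG or its complement CCGCCC, the core of a binding motif of the factor Sp1, and adjacent matches run together. The windows are chr11:6065749-6065998 on the minus strand for Camk2b, chr3:126596701-126596950 on the plus strand for Camk2d, and chr16:20621279-20621528 on the minus strand for Camk2n2. The windows of Camk2b and Camk2d lie inside the gene's full RefSeq span, since other annotated transcripts start further out.
Camk2b: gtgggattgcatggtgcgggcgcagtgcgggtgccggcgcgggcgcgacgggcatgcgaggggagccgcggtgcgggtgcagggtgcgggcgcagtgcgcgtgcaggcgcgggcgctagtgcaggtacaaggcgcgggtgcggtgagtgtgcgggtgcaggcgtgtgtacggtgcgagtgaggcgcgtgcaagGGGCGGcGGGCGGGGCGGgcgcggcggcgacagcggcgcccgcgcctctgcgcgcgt
Camk2d: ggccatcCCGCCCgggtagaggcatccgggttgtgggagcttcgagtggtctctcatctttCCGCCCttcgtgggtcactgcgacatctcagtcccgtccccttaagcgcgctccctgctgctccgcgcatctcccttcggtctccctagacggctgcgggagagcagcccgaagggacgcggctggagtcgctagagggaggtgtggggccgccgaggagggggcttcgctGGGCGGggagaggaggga
Camk2n2: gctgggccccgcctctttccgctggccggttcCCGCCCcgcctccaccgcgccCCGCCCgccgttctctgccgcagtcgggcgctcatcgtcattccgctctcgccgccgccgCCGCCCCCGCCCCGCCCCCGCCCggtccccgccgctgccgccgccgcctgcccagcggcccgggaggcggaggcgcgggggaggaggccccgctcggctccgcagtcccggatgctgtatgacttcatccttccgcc
The GC box was found 3 times before Camk2b, 3 times before Camk2d and 6 times before Camk2n2, and 32.7% of the 32851 promoter windows of the table held at least 1. GC content was 78.4% for Camk2b, 68.4% for Camk2d and 80% for Camk2n2, against a median of 52.4% over all windows. The dinucleotide CpG occurred 44 times, 23 times and 39 times in the same order, against a median of 6. The full CRE motif TGACGTCA, which binds CREB, was found in none of the 3 windows and in 1.55% of all windows. The TATA box TATAAA, searched on both strands, was likewise found in none of the 3 and in 12.4% of all windows.

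The members differed widely in level. Levels are given as the authors' mean normalised count over all 10 libraries divided by the length of all annotated exons in kilobases. No SD is given because single libraries were not given. The annotation behind the counts is not stated, so the GENCODE lengths used for levels and shares may not match the exons counted. Camk2n1 stood at 9896 and Camk2a at 8416 per kilobase on this scale, then came Camk2b at 1956, Camk2n2 at 1860, Camk4 at 1854, Camk2g at 935 and Camk2d at 113. The spread over libraries is not known, so neighbours as close as Camk2b, Camk2n2 and Camk4 cannot be ordered. Before length scaling, Camk2a had the 8th highest mean normalised count of the 13660 genes, at 62823 in the authors' deposited table, and Camk2n1 the 16th highest, at 43978.

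The choice of length decides the order of the leading pair. Per kilobase of the longest protein-coding transcript, a scale added after seeing the data, Camk2a stood at 12641 and Camk2n1 at 9896, so the ratio of Camk2n1 to Camk2a was 1.18 by all exons and 0.783 by the coding transcript. On the coding scale Camk2b stood at 4437, Camk4 at 2224, Camk2g at 1616 and Camk2d at 460, and the 2 lengths agree for Camk2n2. Camk2d moved most, since its 28 transcripts cover 22493 bases of exon while the longest coding one has 5524.

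**Figure D1:**
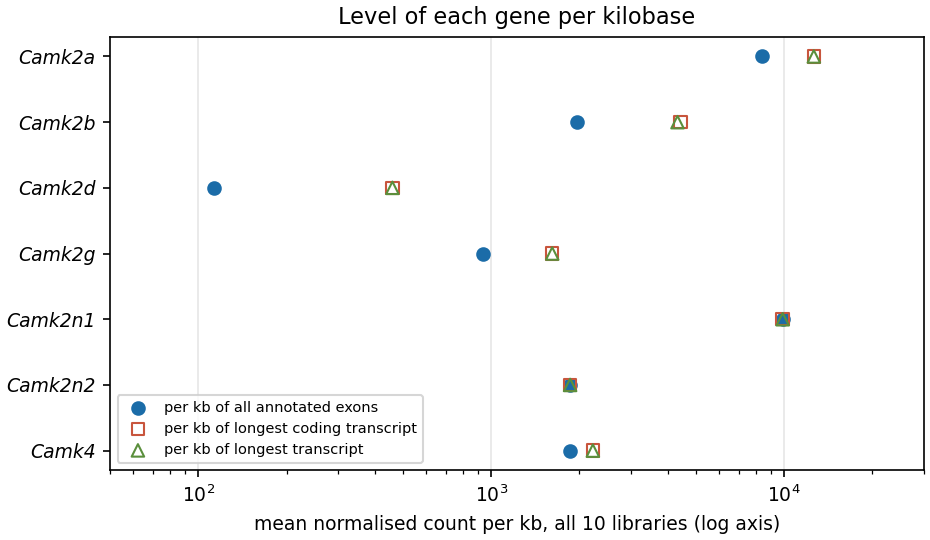
Mean normalised count per kilobase over all 10 libraries (log axis) for each of the 7 genes, with filled circles for the length of all annotated exons, squares for the longest coding transcript and triangles for the longest transcript. Camk2a and Camk2n1 stand highest on every length and Camk2d lowest, from 113 to 460 depending on the length.

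Among the 4 subunits, the alpha subunit gene Camk2a made up 73.7% of the summed level per kilobase of exon, the beta subunit gene Camk2b 17.1%, the gamma subunit gene Camk2g 8.18% and the delta subunit gene Camk2d 0.989%. Per kilobase of the longest coding transcript the shares were 66.0%, 23.2%, 8.44% and 2.40%. The ratio of Camk2a to Camk2b was 4.30 by all exons and 2.85 by the coding transcript. Both shares and ratios describe transcripts, not the subunits in the assembled kinase.

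Camk2a had the highest deposited log2 fold change of the 7. Its mean normalised count was 62823 over all libraries, which with the fold change corresponds to about 60293 in WT and 65354 in KI. The authors' deposited table gave a log2 fold change of 0.12 with a standard error (SE) of 0.042 for Camk2a, or 1.08-fold with a 95% interval of 1.02 to 1.15. It was the 1 member whose interval lay entirely above 1, which held with a trend on gene length removed but not with trends on length and level removed, where the log2 interval ran from -0.010 to 0.16. Its unadjusted p was 0.0062 in the authors' deposited table, the 83rd smallest of 13660, and its adjusted p was 0.9999. At an unadjusted p of 0.05, 3.22% of all genes passed, 1.34% on the higher side. The smallest Wald score (log2 fold change over its standard error, sign ignored) of any gene past the adjusted threshold was 4.15, and at the standard error of Camk2a that score needs a log2 change of 0.18.

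The beta subunit, which binds actin and helps to place the kinase in dendritic spines, gave the most precise value. Camk2b had a log2 fold change of 0.027 (SE 0.037) in the authors' deposited table, 1.02-fold with an interval of 0.970 to 1.07, so that changes of more than 7.10% upward or beyond -3.03% downward lay outside the interval. Camk2g stood close to it at 0.030 (SE 0.042) in the authors' deposited table, with an interval of 0.965 to 1.08-fold. The gamma subunit is known for carrying calmodulin towards the nucleus in excitatory neurons. The standard errors of Camk2b and Camk2g were among the smallest in the table, below those of 99.2% and 97.6% of genes.

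Camk2d, whose product is the main CaMKII subunit of heart muscle and a minor one in forebrain, stood at 0.098 (SE 0.065) in the authors' deposited table. This is 1.07-fold with an interval of 0.980 to 1.17, so its estimate was near that of Camk2a with an interval that included 1. Summed per kilobase of exon, the 4 subunits came to 11049 in WT and 11791 in KI, a ratio of 1.07, most of it from Camk2a. The share of Camk2a among the subunits was 73.1% in WT and 74.3% in KI, and that of Camk2b 17.5% and 16.7%. These group values were computed from the deposited mean and fold change and carry no error, because the covariance between genes is not known.

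The inhibitor proteins bind the active kinase and inhibit it. Camk2n1 had a log2 fold change of 0.031 (SE 0.069) in the authors' deposited table, with an interval of 0.931 to 1.12-fold. Camk2n2 stood at 0.032 (SE 0.089) in the authors' deposited table, with an interval of 0.907 to 1.15-fold and a mean normalised count of 2401. Both intervals included 1 and also included the 1.08-fold estimate of Camk2a. The summed inhibitor level was 11628 per kilobase in WT and 11884 in KI, a ratio of 1.02. The log2 fold change of Camk2n1 was below that of Camk2a by 0.085 (a difference of -0.085, Camk2n1 minus Camk2a), a difference whose error could not be computed.

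Camk4 stood at 0.075 (SE 0.078) in the authors' deposited table, 1.05-fold with an interval of 0.948 to 1.17, from a mean normalised count of 6044. Its level was close to that of Camk2g before length scaling (5983), while its standard error was larger. A log2 change of 0.32 would have been needed for Camk4 to reach the smallest passing score, against 0.17 for Camk2g. In bulk tissue, more cells of a type and more RNA per cell cannot be told apart, for Camk4 as for the other members.

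**Figure D2:**
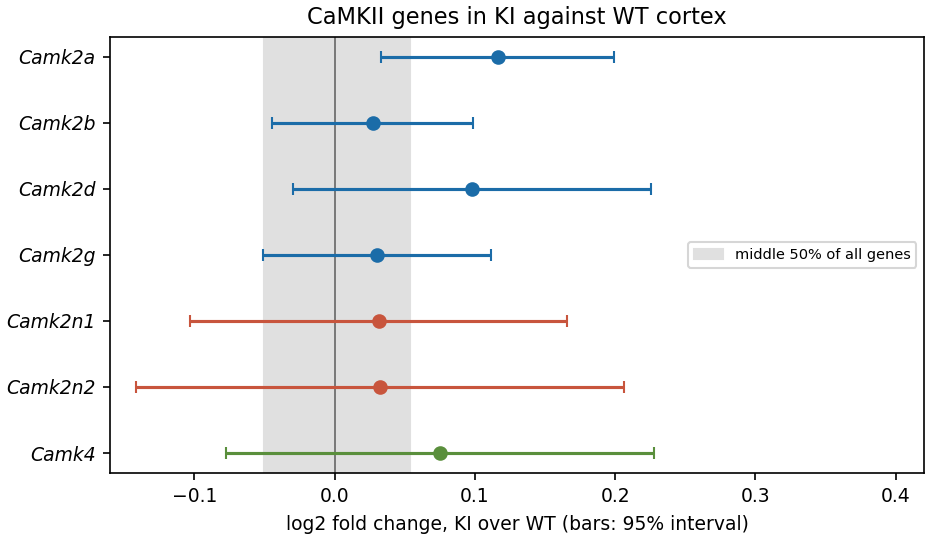
Log2 fold change of KI over WT for each of the 7 genes (points) with 95% intervals from the deposited standard error (bars); blue marks subunits, red inhibitors, green Camk4, and grey the middle 50% of all genes tested. All 7 points lie above 0, and the interval of Camk2a (1.02 to 1.15-fold) alone excludes 0 on the log2 scale.

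**Figure D3:**
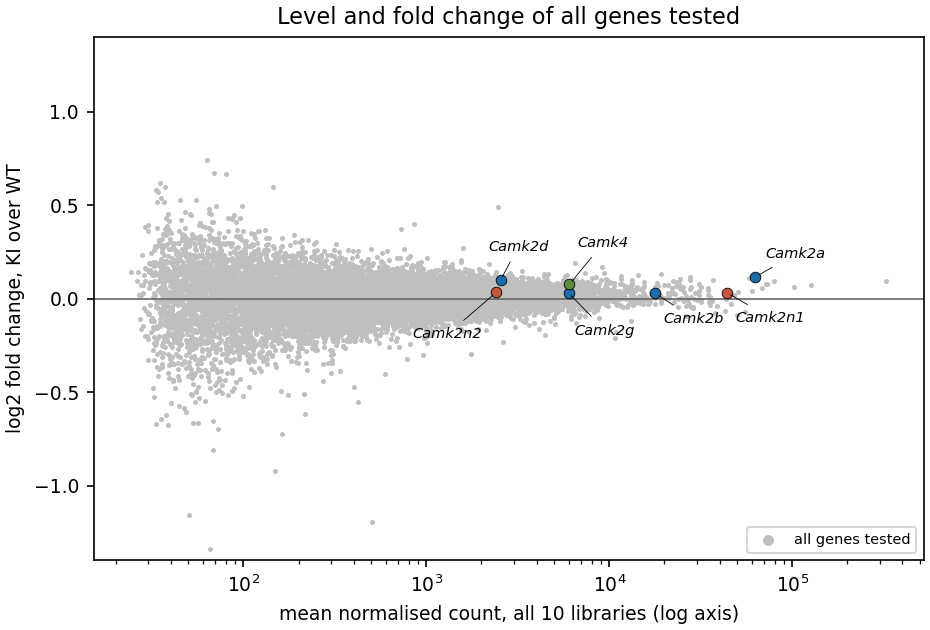
Log2 fold change of KI over WT against the mean normalised count over all 10 libraries (log axis) for the 13660 genes tested (grey), with the 7 members in colour. The members lie in the upper range of levels, where fold changes scatter little, and Camk2a (62823) and Camk2n1 (43978) stand near the right edge.

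Gene length and level moved with these values. Across 13098 genes with an exon length, which are not independent replicates, the log2 fold change and the length had a Spearman correlation of 0.222. A smooth trend on length placed genes as long as Camk2a at 0.014, as long as Camk2d at 0.056 and as short as Camk2n2 at -0.036. With that trend removed, Camk2a stood at 0.10, Camk4 at 0.085, Camk2n2 at 0.068, Camk2d at 0.043, Camk2n1 at 0.032, Camk2g at 0.019 and Camk2b at 0.0080, so all 7 stayed above 0. With a trend on level removed as well, an alternative chosen after seeing the data, Camk4 stood highest at 0.080, Camk2a stood at 0.073 with an interval that included 0, and Camk2b turned to -0.0057. Each of these values for Camk2b was nearer to 0 than its standard error of 0.037.

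**Figure D4:**
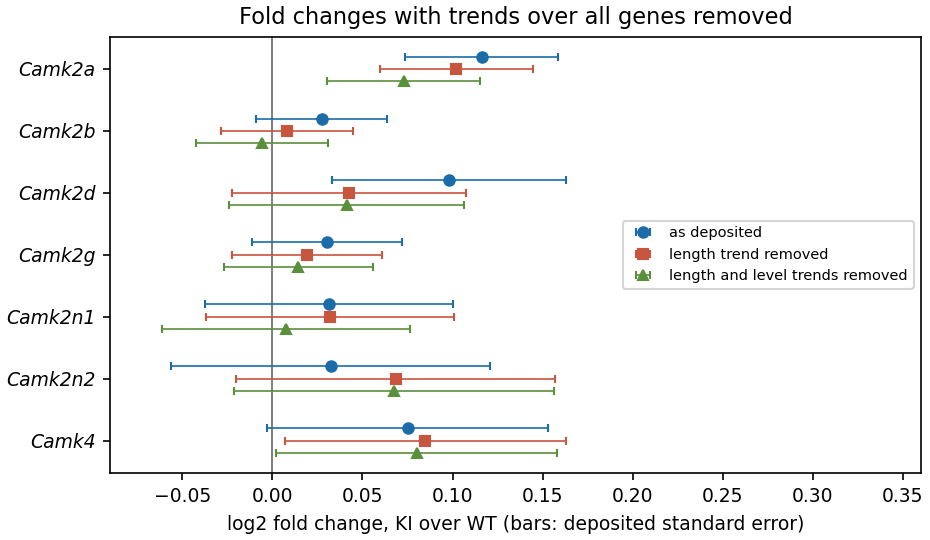
Log2 fold change of KI over WT for each of the 7 genes as deposited (circles), with the length trend over all genes removed (squares) and with length and level trends removed (triangles); bars are the deposited standard errors. Camk2d moves from 0.098 to 0.043 when the length trend is removed, Camk2n2 moves from 0.032 to 0.068, and Camk2b turns to -0.0057 with both trends removed.

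The other genes of the pathway came from 10 lists that hold 70 genes, 2 neighbouring synaptic families included, and 69 were tested. None passed the adjusted threshold in the authors' deposited table in either direction, 47 were positive and 22 negative, and their median log2 fold change was 0.033. Upstream, the calmodulin genes Calm2 and Calm3, which encode the same protein, stood at -0.0065 (SE 0.057) and 0.0089 (SE 0.044) in the authors' deposited table. The list of 4 calmodulin-binding buffer proteins had the lowest median of the 10 lists, -0.071, with 1 positive and 3 negative. Calmodulin binding was not examined here, so the place of a gene such as Pcp4l1 rests on the list alone. In that list Pcp4l1 was lowest, at -0.23 (SE 0.096) in the authors' deposited table. Nrgn, encoding neurogranin, which holds calmodulin in dendritic spines, stood at 0.044 (SE 0.068) in the authors' deposited table.

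Kinases upstream of and related to the members were mixed in sign. Of 7 upstream and other CaM kinase genes 4 were positive and 3 negative (median 0.038), with Camkk2, encoding a kinase that activates CaMKIV, at 0.079 (SE 0.046) and Camk1 at -0.054 (SE 0.077) in the authors' deposited table. Of 5 genes with a CaMK-like kinase domain 4 were positive (median 0.062), with Cask, a scaffold of the presynapse, at 0.11 (SE 0.056) and Dapk3 at -0.097 (SE 0.072) in the authors' deposited table. The list of phosphatases and their regulators had 5 positive and 7 negative members of 12 and a median of -0.0067. Its values ran from -0.068 for Ppp2cb (SE 0.062) to 0.049 for Ppm1e (SE 0.045) in the authors' deposited table.

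Downstream, 10 of 10 CaMKII substrate genes were positive, from 0.018 to 0.077 with a median of 0.047, led by the syntaxin gene Stx1a at 0.077 (SE 0.054) in the authors' deposited table. Of 8 genes for synaptic proteins that bind CaMKII 7 were positive (median 0.038), with the scaffold gene Shank3 at 0.058 (SE 0.037) and the NMDA receptor subunit gene Grin2a at -0.0030 (SE 0.14) in the authors' deposited table. Nuclear targets of CaM kinase signalling had 7 positive and 3 negative members of 10 (median 0.013), with the transcription factor gene Mef2c at 0.059 (SE 0.043) and the neurotrophin gene Bdnf at -0.036 (SE 0.068) in the authors' deposited table. With the length trend removed, the median was 0.027 for the substrates and 0.012 for the CaMKII-binding proteins, and that of the nuclear targets turned to -0.014. On the same scale the buffer list had a median of -0.035 and the phosphatase list -0.0084. The upstream and other CaM kinases had 0.044 and the CaMK-like kinases 0.031, beside 0.043 for the 7 members.

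Compared with neighbouring parts of the excitatory synapse, the 4 CaMKII subunits had a median of 0.064, the 8 PSD-95 family and SAPAP scaffold genes 0.052 with 7 positive, and the 6 tested NMDA receptor subunit genes 0.020 with 3 positive. Over all 7 members the median was 0.032, below that of the scaffolds, so the order depends on which members are taken. Dlg2, encoding the scaffold PSD-93, stood at 0.10 (SE 0.043) and Dlg1 at -0.028 (SE 0.041) in the authors' deposited table. Among receptor subunits Grin3a stood at 0.10 (SE 0.097) and Grin2c at -0.021 (SE 0.080) in the authors' deposited table. With the length trend removed, the medians were 0.031 for the subunits and 0.026 for the scaffolds, and that of the NMDA receptor subunits turned to -0.021. No difference between these groups was tested.

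**Figure D5:**
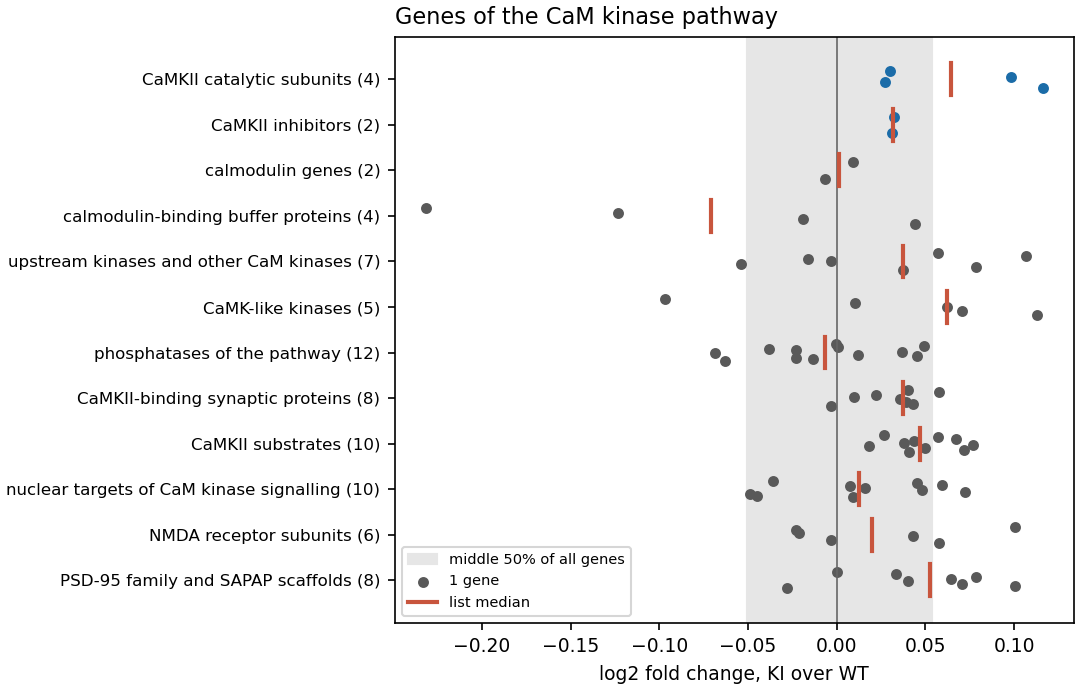
Log2 fold change of KI over WT for each gene (points) of the lists of the CaM kinase pathway and of 2 neighbouring synaptic families, with list medians (red bars), the number of genes tested in parentheses and the middle 50% of all genes in grey. CaMKII substrates lie entirely above 0, the phosphatase list on both sides, and the calmodulin-binding buffer list reaches furthest down, to -0.23 for Pcp4l1.

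Markers of cell types and neighbouring tissues are described here by sign and median. Only the thalamic and meningeal lists held a gene past the adjusted threshold. The lists were chosen with earlier results of these data known, so their counts and medians are descriptions. The part of the markers in the members' values was not tested. Excitatory cortical neuron markers, from cells in which Camk2a is strongly expressed, were positive in 9 of 10 (median 0.052), with a summed mean normalised count of about 40524 in WT and 42186 in KI, and Neurod2 at 0.15 (SE 0.084) had the smallest p of the list in the authors' deposited table. Inhibitory neuron markers were negative in 6 of 8 (median -0.059, 23088 and 22365), led by Pvalb at -0.15 (SE 0.079) in the authors' deposited table. Striatal markers were negative in 9 of 9 (median -0.088, 29431 and 27773) and mature oligodendrocyte markers in 7 of 7 (median -0.079), with Drd1 at -0.14 (SE 0.10) leading the striatal and Cnp at -0.10 (SE 0.038) the oligodendrocyte list in the authors' deposited table. Thalamic markers were negative in 6 of 8 (median -0.40, 3493 and 2505), meningeal markers in 8 of 8 (median -0.26, 4878 and 4149) and choroid plexus markers in 6 of 6 (median -0.26, 26297 and 23614). The summed choroid plexus count came mostly from Ttr (mean 13144) and Enpp2 (mean 10918) in the authors' deposited table. The choroid plexus marker with the smallest p in the authors' deposited table was Kl at -0.40 (SE 0.11). Tmem72, a choroid plexus gene that the list left out, stood on the other side of 0, at 0.67 (SE 0.21) in the authors' deposited table. Hippocampal markers were positive in 7 of 8 (median 0.11), with a summed count of 4163 and 4138, led by Dsp at 0.60 (SE 0.17) in the authors' deposited table. The hippocampal sum came mostly from the 1 negative marker, Wfs1 (mean 2830), at -0.079 (SE 0.059) in the authors' deposited table. The excitatory sum came mostly from Slc17a7 (mean 28078) in the authors' deposited table. Astrocyte markers had 3 positive and 2 negative genes (median 7.4e-04, and -0.012 with the length trend removed), led by Aldh1l1 at -0.13 (SE 0.062) in the authors' deposited table. None of these lists had a marker missing from the table. In the authors' deposited table the markers past the adjusted threshold were Tcf7l2 at -0.92 (SE 0.19, adjusted p = 0.0022), Prkcd at -1.20 (SE 0.29, adjusted p = 0.0437) and Igf2 at -0.29 (SE 0.059, adjusted p = 0.0022), all lower in KI.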

How the data were processed

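RNA-seq libraries of poly(A) RNA from the cortex of 5 WT and 5 KI male mice were grouped by title. The submitters' processing notes name Trimmomatic 0.39, HISAT2 2.1.0, featureCounts 2.0.0 and DESeq2 1.26.0, and build mm10. Per the file headers, the authors' deposited table holds for each gene a mean normalised count (a signal averaged over the libraries), a log2 fold change with its standard error, a Wald score, and raw and adjusted p-values. The annotation, filter and model are not stated in the labels. Depth per library is unknown, the lowest mean was 24.4, and precision rests on the deposited standard errors.

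Each Wald score was the log2 fold change over its standard error, and each adjusted p a Benjamini-Hochberg adjustment, for all 13660 genes with a p-value (tolerance 1e-06). No count model was run, because only the comparison was given. Symbols came from RefSeq (13497 genes named) and exon lengths from GENCODE M21 (13098 genes). Intervals are 95% normal intervals. Group levels were computed from the mean and the fold change, for equal group sizes. Trends were lowess fits (span 0.3, statsmodels 0.14.6, Python 3.11.15), tested on simulated data. Members and lists were chosen with earlier results of these data known. Named genes were the members, Chd8, Calm2 and Calm3, and the gene with the smallest p on each side of 0 in a pathway list. Also named were the marker with the smallest p in each marker list, called markers, and Ttr, Enpp2, Slc17a7 and Wfs1 for their level. Tmem72, which was on no list, was named for its opposite sign. Alternatives were other thresholds, minimum mean counts of 50 and 200, centring, trends and other lengths. The planned comparison of protein sequences was not run, and 1 listed gene is not reported here.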

Additional observations from a re-analysis of the deposited data

How the results depend on the processing

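No paired analysis was possible because the deposited table holds 1 comparison and no values for single libraries. For the same reason no replicate could be left out and no other tool could be run. Of 60 alternative values, 47 stayed near the reported value. Near meant within 1 standard error for the fold change of a gene and within the members' median standard error (0.065) for their median. For a level, a share or a count it meant within 1.5 times. Many of the 47 could hardly move. Centring shifted each fold change by 0.0025, the minimum counts removed no member, and the 2 transcript lengths differed only for Camk2b. No member passed at an adjusted p of 0.1 or with a minimum mean count of 50 or 200, and 1 (Camk2a) was higher at an unadjusted p of 0.05. The median over the members was 0.030 after centring on all genes, 0.043 with the length trend removed, 0.041 with length and level trends removed, 0.064 over the 4 subunits and 0.032 without Camk4. Removing both trends moved Camk2a from 0.12 to 0.073, below Camk4 (0.080). Per kilobase of the longest transcript the levels were 12641 for Camk2a, 4328 for Camk2b, 460 for Camk2d and 1616 for Camk2g, and per kilobase of the longest coding transcript 12641, 4437, 460 and 1616. The share of Camk2d among the subunits was 2.42% by the longest transcript, 2.40% by the longest coding transcript and 2.85% without length scaling, against 0.989%. At the smallest passing Wald score of 4.15, log2 changes under 0.15 (Camk2b) to 0.37 (Camk2n2) would not have passed.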
